A study of Mus musculus with 96 samples.

Results

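The comparison of hippocampus with cortex used all 6 cortex and all 6 hippocampus libraries of the series, 12 of 96 libraries, taken by the tissue named in their labels. Each tissue had 3 libraries from wild-type mice and 3 from Scx-/- mice, which lack scleraxis, a transcription factor of tendon and ligament progenitors. All mice were 3 weeks old. The whole series profiled 16 tissues of both genotypes by MuSeq, a multiplexed RNA sequencing protocol in which every sample is barcoded during reverse transcription before pooling. The mice received no treatment named in the labels, organs were removed whole at necropsy and frozen, and the sources used here do not give the borders of the dissected regions, the sex of the mice or whether a mouse gave more than 1 library. p-values therefore measure the spread between these libraries. The question addressed was which genes separated these 2 brain regions, with genotype as a covariate.

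The hippocampus is a 3-layered fold of cortex that holds the pyramidal neurons of fields CA1, CA2 and CA3 and the granule cells of the dentate gyrus, and it is known for its part in memory. The neocortex has more layers, in which upper-layer neurons connect cortical areas with each other and deep-layer neurons project to the thalamus, brainstem and spinal cord. Both regions are dominated by glutamatergic neurons with a minority of GABAergic interneurons, and they share most of their glial and vascular cell types. In bulk RNA, fewer cells of a type and less RNA per cell cannot be told apart.

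Depth differed between the tissues without overlap, from 616505 to 1658192 counts per library in cortex and from 118567 to 511781 in hippocampus. Levels are given in CPM, the counts scaled to the same total in every library. The floor, which is the level that a count of 0 still allows (3 counts), was 1.81 to 4.87 CPM in cortex and 5.86 to 25.3 CPM in hippocampus, and it covers counting error only. After every library was thinned to 118567 counts, 9771 to 10638 genes had a count in cortex and 7204 to 9536 in hippocampus, a mean difference of -1915.8 genes (exact two-sided permutation test within genotype, p = 0.005, the smallest that 400 arrangements can give). Pearson correlations of log2 CPM were 0.809 to 0.876 within cortex, 0.589 to 0.780 within hippocampus and 0.642 to 0.816 between the tissues, and 0.745 to 0.776, 0.587 to 0.726 and 0.624 to 0.746 at equal depth. In a principal component analysis of the 4252 genes with a mean of at least 50 CPM, at equal depth and on a log2 scale, wild-type hippocampus replicate 1 alone set the first component (20.9% of the variance, score 84.2 against -12.9 to -1.18 in the other libraries) and wild-type hippocampus replicate 3 the second (18.7%, score 79.5 against -12.9 to -0.245). These 2 libraries were also those with the fewest counts, and without them, a choice made after the data were seen, 52 genes were called higher and 138 lower, with 33 of the 40 and 95 of the 124 genes called in all 12 libraries. Ribosomal RNA took 6.84 to 8.78% of cortex counts and 7.85 to 11.5% of hippocampus counts. Scx had 11 counts (6.63 CPM) in wild-type cortex replicate 1 and 0 in the other 11 libraries, so it could not check the genotype labels in these tissues.

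Of 17514 genes with a count in at least 1 of the 12 libraries, 40 (0.228%) were higher in hippocampus and 124 (0.708%) were lower at an adjusted p under 0.05 (quasi-likelihood test of edgeR, Benjamini-Hochberg adjustment over all genes tested), 164 in all (0.936%). Among them, 35 rose and 98 fell by more than 1 on the log2 scale. The CPM of the 6 hippocampus libraries did not overlap those of the 6 cortex libraries for 23 of the genes called higher and 74 of those called lower, against 52 and 209 of all genes tested in these directions. The median log2 fold change of all genes tested was -0.46, and that of the 4252 genes with a mean of at least 50 CPM was -0.18, so the list medians given here are read against these values. Counts of called list members are read beside the shares of all genes, 0.228% higher and 0.708% lower. The lists were chosen with earlier results of these data known, so these counts are a description only. Scaling moved the split between directions. With TMM, 24.4% of calls were higher in hippocampus, with RLE size factors 69 genes were higher and 77 lower (47.3% higher, all log2 fold changes shifted by about 0.18), and with library totals 62 were higher and 81 lower (43.4%, shift 0.14). All 40 genes called higher were also called higher under both other scalings, while 77 and 81 of the 124 genes called lower were still called lower. At equal depth 23 genes were called higher and 63 lower, with 22 of the 40 and 59 of the 124 among them. The calls of named genes were also refitted under 21 alternatives in all, including each library left out, and where a call is said to be lost, its adjusted p was over 0.05 there.

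**Figure D1:**
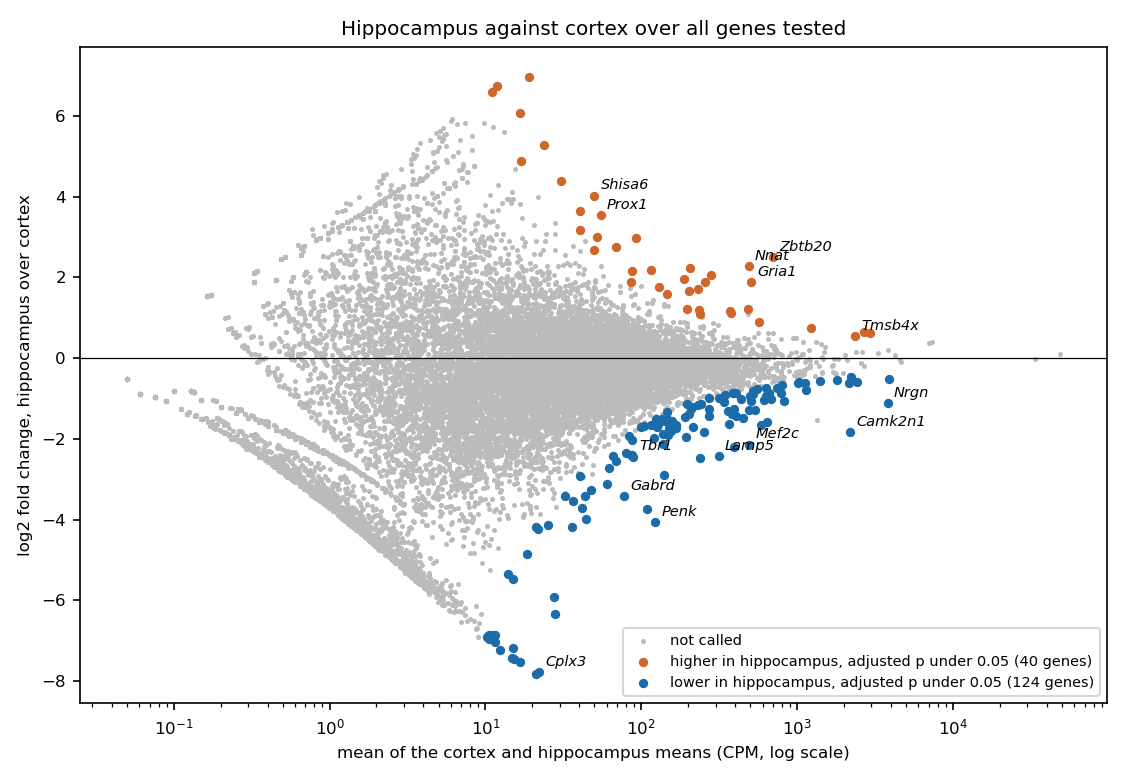
Log2 fold change of hippocampus over cortex (vertical axis) against the mean of both tissue means in CPM (horizontal axis, log scale) for each of the 17514 genes tested, with the 40 genes called higher and the 124 called lower in colour. Calls lie along the outer edge of the cloud, with Camk2n1 (log2 fold change -1.83) and Zbtb20 (2.50) among the abundant ones.

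The promoters of 2 genes that rose, Prox1 and Nnat, and of 2 that fell, Nrgn and Rgs4, are shown as examples, chosen after values were seen. These genes were among those that separated the tissues, and their annotated starts adjoin the window. Each is the 250 bases before the start in RefSeq (GRCm38.p6), 5′ to 3′ on the gene's strand, with matches to an E-box (CATCTG, either strand) or a TATA motif (TATAAA, either strand) in capitals. The regions are chr1:190170828-190171077 on the minus strand for Prox1, chr2:157559828-157560077 on the plus strand for Nnat, chr9:37552746-37552995 on the minus strand for Nrgn and chr1:169747643-169747892 on the minus strand for Rgs4.
Prox1: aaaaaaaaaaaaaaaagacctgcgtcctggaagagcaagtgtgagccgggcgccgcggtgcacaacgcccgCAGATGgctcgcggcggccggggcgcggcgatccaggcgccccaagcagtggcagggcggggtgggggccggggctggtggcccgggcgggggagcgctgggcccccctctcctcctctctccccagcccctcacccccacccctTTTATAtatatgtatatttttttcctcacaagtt
Nnat: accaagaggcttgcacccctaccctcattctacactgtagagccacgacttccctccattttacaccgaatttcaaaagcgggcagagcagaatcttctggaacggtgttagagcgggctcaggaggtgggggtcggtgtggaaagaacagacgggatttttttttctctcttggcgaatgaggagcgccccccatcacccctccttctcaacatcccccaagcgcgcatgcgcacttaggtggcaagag
Nrgn: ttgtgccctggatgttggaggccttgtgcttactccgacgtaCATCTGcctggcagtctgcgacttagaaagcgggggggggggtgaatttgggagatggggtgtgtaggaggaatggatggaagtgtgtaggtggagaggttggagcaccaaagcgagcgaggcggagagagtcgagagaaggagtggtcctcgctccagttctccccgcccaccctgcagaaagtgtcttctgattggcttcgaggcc
Rgs4: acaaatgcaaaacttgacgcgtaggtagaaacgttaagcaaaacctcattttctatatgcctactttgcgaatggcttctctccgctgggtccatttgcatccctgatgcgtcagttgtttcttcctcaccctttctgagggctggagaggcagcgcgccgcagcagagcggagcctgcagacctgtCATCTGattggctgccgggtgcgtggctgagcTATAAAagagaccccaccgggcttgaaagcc
The Nnat window held no match to either motif. Nor did the windows of Ngef, Stx1a and Tbr1, which also fell and are not shown, although those of Ngef and Stx1a also adjoin their annotated starts. The windows shown therefore do not give the motif rate of the called genes. GC content was 64.8% for Prox1, 54.8% for Nnat, 58.4% for Nrgn and 53.6% for Rgs4.

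Zbtb20, a zinc finger repressor needed for hippocampal patterning, had 63.2, 198 and 279 CPM (lowest, median and highest of 6 libraries) in cortex and 1030.0, 1211 and 1366 CPM in hippocampus. The groups did not overlap, and every hippocampus library lay above every cortex library by a wide margin (log2 fold change 2.50, SE 0.20, edgeR adjusted p = 2.43e-30). Wipf3, a member of a family of actin regulators, followed with 27.6, 114 and 124 CPM in cortex and 294, 421 and 472 CPM in hippocampus, again without overlap (log2 fold change 1.88, SE 0.29, edgeR adjusted p = 1.21e-07). These were the 2 of 10 tested genes of a hippocampus-wide list that rose, against 0.228% of all genes, none fell, and the list median was 1.26, with 3 higher under RLE. Summed over the list, hippocampus libraries held 0.186 to 0.255% of their counts in these genes and cortex libraries 0.0642 to 0.0911%. Without Zbtb20 and Wipf3 the shares overlapped, at 0.0410 to 0.0823% and 0.0409 to 0.0521%.

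Of 15 tested dentate granule cell genes, 3 rose and none fell, against 0.228% and 0.708% of all genes, and 5 had log2 fold changes below 0. The list had a median of 0.31 and summed shares of 0.0599 to 0.0940% in hippocampus and 0.0420 to 0.0685% in cortex, which overlapped. Prox1, the homeobox factor that defines granule cell identity, had 0, 6.33 and 23.5 CPM in cortex and 45.5, 83.6 and 253 CPM in hippocampus, where wild-type replicate 1 was the highest. The groups did not overlap (log2 fold change 3.54, SE 0.76, edgeR adjusted p = 0.000985). C1ql2, a secreted C1q-like protein of mossy fibre synapses, had 0, 0 and 11.3 CPM in cortex and 8.43, 62.8 and 105 CPM in hippocampus, with slight overlap (log2 fold change 4.38, SE 1.03, edgeR adjusted p = 0.00469). Dsp, desmoplakin, had 0, 0.603 and 1.82 CPM in cortex and 0, 28.5 and 86.2 CPM in hippocampus (log2 fold change 4.89, SE 1.31, edgeR adjusted p = 0.0272). Its groups overlapped, with wild-type hippocampus replicate 1 at 0. The calls of Prox1, C1ql2 and Dsp were lost at equal depth, that of C1ql2 also without the 2 cortex libraries richest in striatal RNA, and that of Dsp in 10 of the 21 alternatives. Npnt, nephronectin, an extracellular matrix protein on the same list, had 48.7, 89.3 and 204 CPM in cortex and 0, 17.0 and 120.0 CPM in hippocampus (log2 fold change -1.89, SE 0.58, edgeR adjusted p = 0.0811). It was called lower without the striatum-rich cortex libraries and without Scx-/- hippocampus replicate 1. Lct of this list was called higher without the 2 hippocampus libraries of fewest counts. So it was without replicate 1 of either Scx-/- group or wild-type hippocampus replicate 3. Tdo2 was called higher with no genotype term (edgeR adjusted p = 0.0495).

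Of 11 tested CA1 pyramidal neuron genes, 3 rose and none fell, with a list median of 2.02 and summed shares of 0.0769 to 0.146% in hippocampus and 0.0659 to 0.104% in cortex, which overlapped. Wfs1, a protein of the endoplasmic reticulum membrane, had 68.1, 126 and 216 CPM in cortex and 109.7, 355 and 565 CPM in hippocampus, with overlap (log2 fold change 1.19, SE 0.30, edgeR adjusted p = 0.0121). Fibcd1, an acetyl-group binding membrane receptor, had 0, 10.9 and 35.6 CPM in cortex and 24.8, 124 and 212 CPM in hippocampus (log2 fold change 2.76, SE 0.63, edgeR adjusted p = 0.00291). Scx-/- hippocampus replicate 1 fell within its cortex range, and the call was lost without Scx-/- hippocampus replicate 3. Spink8, a serine protease inhibitor, had 0, 0 and 2.91 CPM in cortex and 0, 48.9 and 101 CPM in hippocampus (log2 fold change 5.28, SE 1.23, edgeR adjusted p = 0.00364), with Scx-/- hippocampus replicate 3 at 0. The calls of Wfs1 and Spink8 were lost at equal depth and with the replicate block, and that of Wfs1 in 7 of the 21 alternatives. None of 14 tested CA2 and CA3 genes passed the test in either direction. Their median was 0.52, and their summed share was 0.0592 to 0.100% in hippocampus and 0.0368 to 0.0568% in cortex, without overlap. Cpne4 of this list was called higher with DESeq2 (log2 fold change 1.83, DESeq2 adjusted p = 0.00698). It was also called higher without the 2 hippocampus libraries of fewest counts (log2 fold change 1.97, edgeR adjusted p = 0.0244). Nptx1, a neuronal pentraxin and member of that list, had 107, 118 and 168 CPM in cortex and 133, 221 and 483 CPM in hippocampus (log2 fold change 0.77, SE 0.33, edgeR adjusted p = 0.354).

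**Figure D2:**
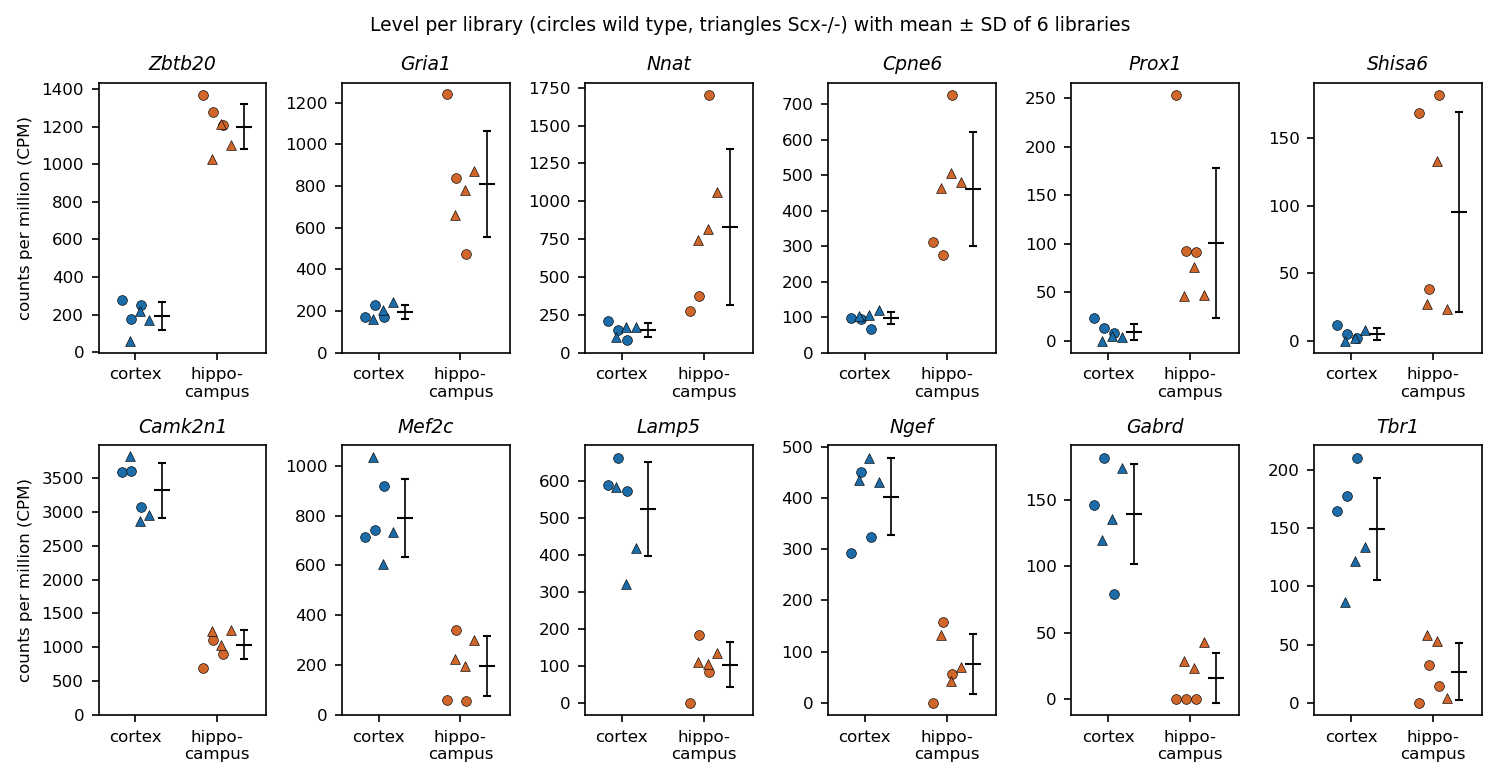
CPM (vertical axes, linear) in each library for 6 genes called higher (top) and 6 called lower (bottom) in hippocampus, with circles for wild type, triangles for Scx-/- and bars for mean ± SD of 6 libraries per tissue. No cortex point reaches the hippocampus points of the same gene in any of the 12 panels, for example 63.2 to 279 CPM against 1030.0 to 1366 CPM for Zbtb20.

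Some genes of the neocortical layers were lower in hippocampus. Of 13 tested upper-layer genes, 4 fell (Cux1, Cux2, Lamp5 and Plcxd2) against 0.708% of all genes, and none rose, with a list median of -1.39 and 2 still lower under RLE. Lamp5, a lysosome-associated membrane protein of upper-layer neurons and some interneurons, had 320.2, 576 and 663 CPM in cortex and 0, 107 and 184 CPM in hippocampus, without overlap (log2 fold change -2.43, SE 0.27, edgeR adjusted p = 2.37e-15). Cux2, a homeobox factor of layers 2 to 4, had 72.8, 93.3 and 143 CPM in cortex and 0, 7.82 and 62.7 CPM in hippocampus (log2 fold change -2.71, SE 0.69, edgeR adjusted p = 0.0121). Its groups did not overlap, but all 3 wild-type hippocampus libraries were at 0, and the call was lost at equal depth and without Scx-/- cortex replicate 1 or wild-type cortex replicate 3. The calls of Cux1 and Plcxd2 were each lost in 15 of the 21 alternatives. The summed share of the list was 0.0979 to 0.160% in cortex and 0.0494 to 0.0741% in hippocampus, and 0.0365 to 0.0585% and 0.0230 to 0.0616%, which overlapped, without the 4 called genes.

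Of 19 tested deep-layer genes, 4 fell and 1 rose, with a median of -0.97 and 7 log2 fold changes above 0. Tbr1, a T-box factor of layer 6 neurons, had 86.8, 149.5 and 211 CPM in cortex and 0, 23.2 and 57.9 CPM in hippocampus, without overlap (log2 fold change -2.44, SE 0.53, edgeR adjusted p = 0.00111). Rgs4, which speeds the shut-off of G protein signals, had 699, 901 and 1001 CPM in cortex and 235, 286 and 439 CPM in hippocampus (log2 fold change -1.67, SE 0.21, edgeR adjusted p = 1.64e-12). Pcp4, a calmodulin-binding peptide, had 725, 866 and 1267 CPM in cortex and 216, 331 and 552 CPM in hippocampus (log2 fold change -1.58, SE 0.20, edgeR adjusted p = 6.11e-12). Neither Rgs4 nor Pcp4 overlapped between the tissues. Cplx3, a complexin of subplate-derived neurons, had 9.46, 35.0 and 89.2 CPM in cortex and 0 in all 6 hippocampus libraries, at least 21.3-fold lower against a floor of 3 counts over the tissue (edgeR adjusted p = 0.000722). Crym, a thyroid hormone-binding crystallin, was the deep-layer gene that rose, with 45.4, 88.1 and 196 CPM in cortex and 81.2, 383 and 608 CPM in hippocampus (log2 fold change 1.73, SE 0.30, edgeR adjusted p = 1.08e-05), and its groups overlapped.

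Of 11 tested genes listed as neocortex-wide, 3 fell, Mef2c and Lmo4 among them, and none rose, with a median of -0.94. Under RLE the count was 2 higher (Neurod6 and Lmo3) and 2 lower, and the list median was -0.75, while library totals gave 2 higher, 3 lower and a median of -0.78. Mef2c, a MADS-box factor of excitatory neurons, had 607, 737 and 1033 CPM in cortex and 56.0, 211 and 341 CPM in hippocampus, without overlap (log2 fold change -2.15, SE 0.23, edgeR adjusted p = 1.53e-17). The call of Lmo4 was lost under RLE, with DESeq2, at equal depth and without the striatum-rich cortex libraries.

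**Figure D3:**
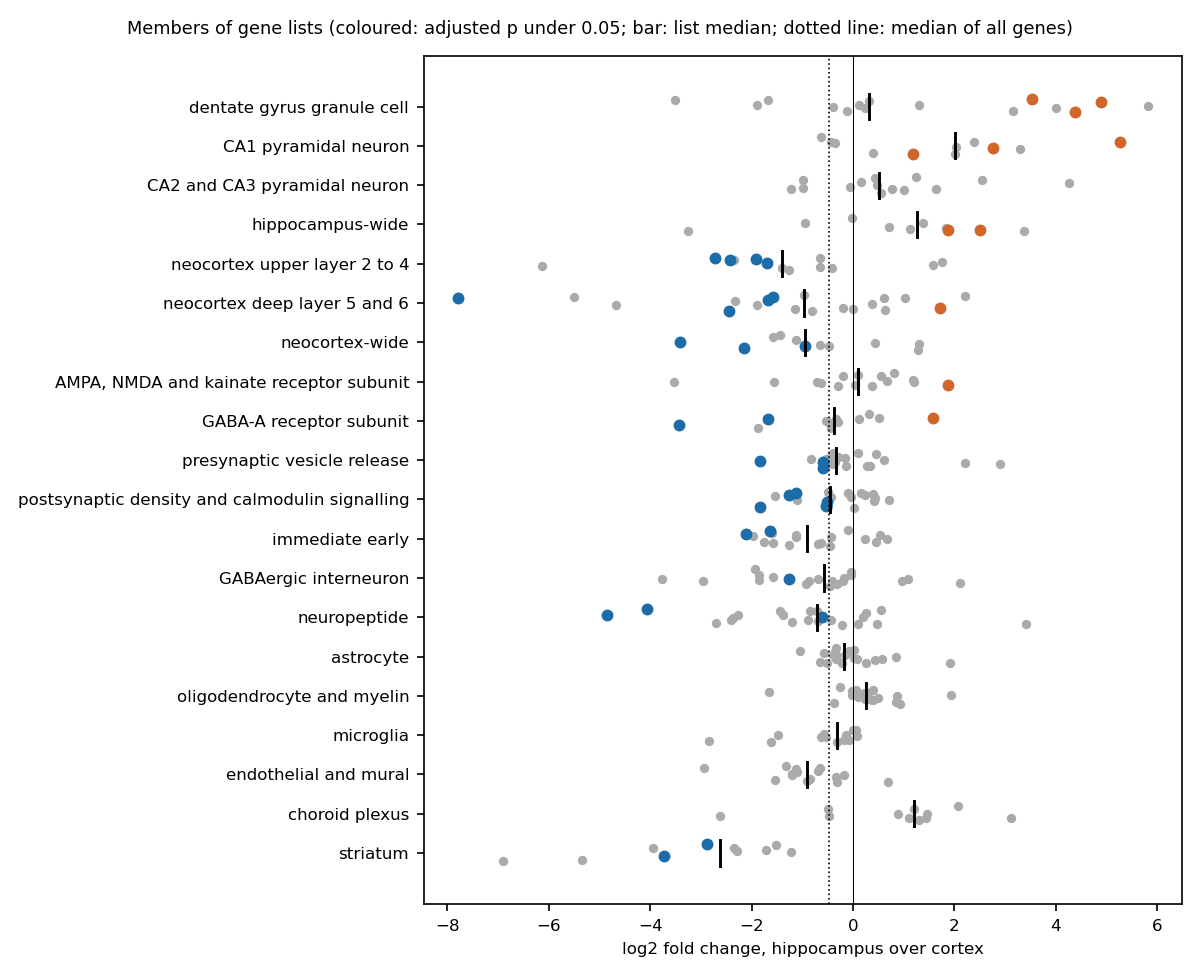
Log2 fold change of hippocampus over cortex (horizontal axis) for every tested member of 20 gene lists (vertical axis), with called members in colour, a bar at each list median and a dotted line at the median of all genes tested, -0.46. The hippocampal field lists have medians from 0.31 to 2.02 and the neocortical lists from -1.39 to -0.94, while the glial lists lie between -0.31 and 0.26.

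Among ionotropic glutamate receptor subunits, 1 of 15 rose and none fell, with a median of 0.10. Gria1, the AMPA receptor subunit GluA1, had 164, 189.5 and 244 CPM in cortex and 476, 809 and 1240.0 CPM in hippocampus, without overlap (log2 fold change 1.88, SE 0.22, edgeR adjusted p = 7.71e-14). The partner subunit Gria2 had 565, 615 and 841 CPM in cortex and 563, 731 and 1067 CPM in hippocampus (log2 fold change 0.04, SE 0.19, edgeR adjusted p = 0.949). The obligatory NMDA receptor subunit Grin1 likewise overlapped, with a log2 fold change of -0.19 (SE 0.23), and Grin2b had a log2 fold change of 0.10 (SE 0.23). Summed, the list took 0.282 to 0.342% of hippocampus counts and 0.191 to 0.256% of cortex counts, or 0.198 to 0.286% and 0.168 to 0.236%, which overlapped, without Gria1. None of 6 tested metabotropic receptors passed the test.

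AMPA receptors carry auxiliary subunits that set their trafficking and gating, and a list of these was written after their values were seen. Of 16 tested, 2 rose (Cnih2 and Shisa6) and 3 fell (Cacng3, Olfm1 and Olfm2), against 0.228% and 0.708% of all genes, with a median of -0.74. Because the list followed the values, these counts are a description only. Shisa6 had 0, 3.24 and 11.5 CPM in cortex and 23.5, 85.4 and 182 CPM in hippocampus, without overlap (log2 fold change 4.03, SE 0.81, edgeR adjusted p = 0.000286). Cnih2, a cornichon protein, had 189.8, 401 and 518 CPM in cortex and 592, 782 and 888 CPM in hippocampus, also without overlap (log2 fold change 0.89, SE 0.21, edgeR adjusted p = 0.00414). Cacng3, a transmembrane regulatory protein of the stargazin family, went the other way with 159, 218 and 320.5 CPM in cortex and 16.9, 92.9 and 168 CPM in hippocampus (log2 fold change -1.56, SE 0.37, edgeR adjusted p = 0.00548). Its groups overlapped. The call of Olfm1 was lost in 15 of the 21 alternatives, that of Cnih2 without wild-type cortex replicate 2 or 3, that of Cacng3 without wild-type cortex replicate 2 or the striatum-rich cortex libraries, and that of Olfm2 at equal depth and without replicate 1 of either cortex group. Without the 2 hippocampus libraries of fewest counts, the calls of Shisa6 and Cacng3 were lost.

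GABA-A receptor subunits split by type, with 1 of 12 higher, 2 lower and a median of -0.38. Gabra5, the alpha subunit of extrasynaptic receptors that is abundant in hippocampal pyramidal cells, had 35.4, 51.9 and 154 CPM in cortex and 86.6, 247 and 343 CPM in hippocampus (log2 fold change 1.58, SE 0.39, edgeR adjusted p = 0.00847), with overlap. Gabrd, the delta subunit of extrasynaptic receptors, had 79.5, 141 and 182 CPM in cortex and 0, 11.7 and 43.1 CPM in hippocampus (log2 fold change -3.42, SE 0.61, edgeR adjusted p = 1.53e-05). All 3 wild-type hippocampus libraries were at 0 for Gabrd, and the groups did not overlap. The call of Gabra5 was lost without the striatum-rich cortex libraries, Scx-/- cortex replicate 1 or Scx-/- hippocampus replicate 2. Gabrb2, a beta subunit, had a log2 fold change of -0.54 (SE 0.26, edgeR adjusted p = 0.461).

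In the postsynaptic and calmodulin signalling list, 5 of 20 tested genes fell and none rose, with a median of -0.46, the same as that of all genes. Under RLE 3 were lower and 1, Camk2b, was higher. Camk2n1, an inhibitor of calcium/calmodulin-dependent kinase II, was the gene with the smallest p of those named, with 2864, 3327 and 3827 CPM in cortex and 700.0, 1074 and 1250.0 CPM in hippocampus (log2 fold change -1.83, SE 0.14, edgeR adjusted p = 4.13e-38). Nrgn, neurogranin, which binds calmodulin at low calcium, had 4531, 4834 and 5732 CPM in cortex and 2269, 2547 and 2946 CPM in hippocampus (log2 fold change -1.12, SE 0.11, edgeR adjusted p = 3.34e-20). Camk4, a nuclear calmodulin-dependent kinase, had 464, 542 and 592 CPM in cortex and 204, 236 and 320.5 CPM in hippocampus (log2 fold change -1.26, SE 0.24, edgeR adjusted p = 6.5e-05). The groups did not overlap for any of the 3. Camk2a, the alpha subunit of the kinase itself, overlapped almost entirely (log2 fold change -0.03, SE 0.20, edgeR adjusted p = 0.958). Summed, the list took 2.25 to 2.46% of cortex counts and 1.73 to 1.89% of hippocampus counts. Without the 5 called genes the shares overlapped, at 0.782 to 0.861% in cortex and 0.854 to 1.03% in hippocampus.

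Of 22 presynaptic release genes, 3 fell and none rose, with a median of -0.34, and under RLE 1 was lower and 1, Syn2, was higher. Stx1a, the plasma membrane SNARE syntaxin 1A, had 248, 388 and 572 CPM in cortex and 54.7, 113 and 182 CPM in hippocampus, without overlap (log2 fold change -1.82, SE 0.29, edgeR adjusted p = 3.69e-07). Its partner Snap25 had 2413, 2743 and 3120.0 CPM in cortex and 1763, 1985 and 2421 CPM in hippocampus (log2 fold change -0.58, SE 0.13, edgeR adjusted p = 0.00121), with overlap and a call that was lost with RLE, library totals, DESeq2 and equal depth. Cplx1, a complexin and the third of the calls, lost it in 14 of the 21 alternatives. Slc17a7, the vesicular glutamate transporter of cortical and hippocampal pyramidal neurons, had 539, 564 and 584 CPM in cortex and 325, 509.9 and 551 CPM in hippocampus (log2 fold change -0.40, SE 0.21, edgeR adjusted p = 0.498).

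Immediate early genes, which neurons induce with activity, had 2 of 18 lower, none higher and a median of -0.90. Egr1, a zinc finger factor, had 443, 562 and 584 CPM in cortex and 102, 133 and 379 CPM in hippocampus, without overlap (log2 fold change -1.63, SE 0.25, edgeR adjusted p = 4.58e-08). Arc, a regulator of AMPA receptor endocytosis, had 56.7, 206 and 356 CPM in cortex and 10.8, 59.5 and 97.9 CPM in hippocampus, with overlap (log2 fold change -2.12, SE 0.41, edgeR adjusted p = 0.000123). Fos did not pass the test, with 74.2, 102 and 143 CPM in cortex and 0, 35.0 and 103 CPM in hippocampus (log2 fold change -1.59, SE 0.55, edgeR adjusted p = 0.184). The list held 0.161 to 0.227% of cortex counts and 0.0916 to 0.154% of hippocampus counts, or 0.106 to 0.139% and 0.0677 to 0.118%, which overlapped, without Egr1 and Arc.

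Interneuron, peptide and potassium channel genes had 5 calls in all in the main fit, each lower in hippocampus. Pvalb, parvalbumin of fast-spiking interneurons, was the 1 of 20 interneuron genes that fell, with 179, 238 and 475 CPM in cortex and 58.6, 123 and 231 CPM in hippocampus (log2 fold change -1.27, SE 0.32, edgeR adjusted p = 0.00992), and none of the list passed under RLE. The list median was -0.57. With DESeq2, Slc32a1 and Vip were called lower and Calb2 higher (log2 fold changes -1.395, -1.743 and 2.324). Slc32a1 was also called lower without the 2 hippocampus libraries of fewest counts and without wild-type hippocampus replicate 3. The Pvalb groups overlapped. Pvalb is also a muscle gene, with a mean of 22400.0 CPM in muscle, and its highest library, wild-type cortex replicate 2 (474.6 CPM), had the highest summed share of genes from other organs (0.0644%), whose part in the difference was not tested. The call was also lost with DESeq2, with library totals, and without Scx-/- cortex replicate 1, wild-type cortex replicate 2 or Scx-/- hippocampus replicate 2. Of 23 neuropeptide genes, Penk, Cck and Pcsk1 fell and none rose, with a median of -0.72, against 2 higher (Chgb and Cpe) and 1 lower under RLE. The calls of Cck and Pcsk1 were lost in 12 and 15 of the 21 alternatives. Penk, proenkephalin, had 29.2, 174 and 562 CPM in cortex and 0, 13.4 and 41.0 CPM in hippocampus (log2 fold change -4.06, SE 0.49, edgeR adjusted p = 3.24e-13), and its 2 highest libraries were cortex Scx-/- replicates 2 and 3. Among 26 listed potassium channel genes Kcnh3 alone passed, with 127, 182 and 236 CPM in cortex and 0, 73.1 and 108 CPM in hippocampus (log2 fold change -1.52, SE 0.42, edgeR adjusted p = 0.0367), and none did under RLE. Its list median was -0.42, and the call was lost in 14 of the 21 alternatives. Outside the list, 2 more potassium channel genes called lower were Kcnab3, a beta subunit, and Kcnv1, a modifier subunit with 111, 127 and 206 CPM in cortex and 0, 22.1 and 84.3 CPM in hippocampus (log2 fold change -2.40, SE 0.54, edgeR adjusted p = 0.00209). The call of Kcnv1 was lost without Scx-/- cortex replicate 1.

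The other genes with the largest rises were in none of these lists. Nnat, the imprinted proteolipid neuronatin, had 86.0, 160.3 and 211 CPM in cortex and 278, 781 and 1700.0 CPM in hippocampus, without overlap (log2 fold change 2.29, SE 0.23, edgeR adjusted p = 2.02e-19). Cpne6, a calcium-dependent phospholipid-binding copine, had 66.5, 102 and 119 CPM in cortex and 276, 473 and 727 CPM in hippocampus (log2 fold change 2.06, SE 0.28, edgeR adjusted p = 6.24e-10). Scn3b, a sodium channel beta subunit, had 38.6, 53.7 and 109 CPM in cortex and 240.0, 332 and 476 CPM in hippocampus (log2 fold change 2.23, SE 0.33, edgeR adjusted p = 2.35e-08). Lpl, lipoprotein lipase, rose from 16.2 to 69.1 CPM in cortex to 135 to 244 CPM in hippocampus, and Dgkg, a diacylglycerol kinase, from a median of 65.3 to 294 CPM. None of these 5 genes overlapped between tissues, and all 5 calls held in the 21 alternatives.

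Guidance genes of the class 3 semaphorin and Slit systems, a list also written after values were seen, had 4 of 20 higher and none lower. The shares of all genes were 0.228% and 0.708%, and the list median was -0.58. Because the list followed the values, this count is a description only. Sema3e, a secreted semaphorin, had 1.62, 9.55 and 22.7 CPM in cortex and 47.6, 81.5 and 176 CPM in hippocampus, without overlap (log2 fold change 2.99, SE 0.75, edgeR adjusted p = 0.00995). Nrp1, a semaphorin co-receptor, had 46.4, 95.6 and 123 CPM in cortex and 252, 302 and 434 CPM in hippocampus, without overlap (log2 fold change 1.65, SE 0.33, edgeR adjusted p = 0.000202). Nrp2, its relative, had 1.56, 5.03 and 29.1 CPM in cortex and 16.9, 65.0 and 161 CPM in hippocampus (log2 fold change 3.18, SE 0.86, edgeR adjusted p = 0.0292), with overlap. Slit1, a ligand of Robo receptors, had 9.46, 25.3 and 48.2 CPM in cortex and 67.5, 116 and 325 CPM in hippocampus (log2 fold change 2.17, SE 0.52, edgeR adjusted p = 0.00603), without overlap. The call of Nrp1 held in all 21 alternatives, those of Sema3e and Slit1 were lost in 5 each, equal depth and the replicate block among them, and that of Nrp2 in 11.

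Other genes with large falls and no overlap were in none of the lists. Ngef, a guanine nucleotide exchange factor downstream of Eph receptors, had 293, 434 and 479 CPM in cortex and 0, 63.2 and 157 CPM in hippocampus (log2 fold change -2.48, SE 0.31, edgeR adjusted p = 1.15e-12). Hrh3, the histamine H3 receptor, had 95.4, 104 and 120.1 CPM in cortex and 0, 13.3 and 37.2 CPM in hippocampus (log2 fold change -3.12, SE 0.69, edgeR adjusted p = 0.00168). Kcnab3 had 38.5, 60.3 and 118 CPM in cortex and 0, 0 and 14.5 CPM in hippocampus (log2 fold change -4.17, SE 0.95, edgeR adjusted p = 0.00268). For Kcnab3, Rgs6, Plcb4 and Gm11549 the median hippocampus library was at 0, which at hippocampus floors of 5.86 to 25.3 CPM is no sign of absence. The cortex medians of these were 60.3, 67.6, 86.5 and 57.4 CPM. The calls of Kcnab3, Rgs6, Plcb4 and Rasgef1c were lost at equal depth, and those of Plcb4, Rasgef1c, Hrh3 and Garnl3 without the striatum-rich cortex libraries, where 2 fewer libraries entered the fit and the log2 fold changes were -4.50, -4.60, -3.91 and -3.40. Without Scx-/- cortex replicate 1 the calls of Kcnab3, Rgs6 and Rasgef1c were lost, without wild-type cortex replicate 3 that of Garnl3, and without wild-type cortex replicate 1 or Scx-/- hippocampus replicate 2 that of Rasgef1c. Rasgef1c fell from a median of 64.2 to 1.95 CPM and Garnl3 from 107 to 25.0 CPM.

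Glial, vascular and border-cell lists had no call in either direction in the main fit. In the alternatives, calls of oligodendrocyte genes were all higher. Among them were Cldn11 under RLE, under library totals and without wild-type hippocampus replicate 3, and Ugt8a with DESeq2. Mobp was called higher without the 2 hippocampus libraries of fewest counts. The microglia gene C1qa was called lower with DESeq2 (log2 fold change -2.60, DESeq2 adjusted p = 0.0484). The medians were -0.19 for 20 astrocyte genes, 0.26 for 20 oligodendrocyte genes, -0.31 for 13 microglia genes, -0.90 for 15 endothelial and mural genes, 1.20 for 11 choroid plexus genes, -0.29 for 8 ependymal genes and -0.54 for 11 meningeal genes. Mbp, myelin basic protein, had 4071, 6338 and 6820.0 CPM in cortex and 4344, 8160.0 and 13070.0 CPM in hippocampus (log2 fold change 0.40, SE 0.28, edgeR adjusted p = 0.634). Without wild-type hippocampus replicate 3, the hippocampus library with the lowest oligodendrocyte share, its edgeR adjusted p was 1.52e-06 at a log2 fold change of 0.55. The oligodendrocyte share ranged from 1.18 to 3.57% in hippocampus and from 1.17 to 1.94% in cortex. Endothelial and mural genes took 0.0388 to 0.0606% of hippocampus counts and 0.0663 to 0.0806% of cortex counts, which did not overlap. Ttr, transthyretin of the choroid plexus, ranged from 35.4 to 809.5 CPM in cortex and from 271 to 1434 CPM in hippocampus (log2 fold change 1.10, SE 0.92, edgeR adjusted p = 0.686).

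None of 17 neurogenesis, 10 steroid response, 9 thalamus, 7 blood or 5 sex-linked genes passed the test, with medians of -0.44, -0.28, -0.20, 0.66 and -0.06. Striatal genes varied among the cortex libraries. All 10 tested had log2 fold changes below 0, 2 fell, Ppp1r1b among them, and the median was -2.62. Their summed share was 0.0371, 0.0703 and 0.0201% in the wild-type cortex replicates 1 to 3 and 0.0225, 0.125 and 0.143% in the Scx-/- cortex replicates, against 0.00431 to 0.0329% in hippocampus. Ppp1r1b, the dopamine-regulated phosphatase inhibitor DARPP-32, had 48.7, 211 and 551 CPM in cortex and 0, 42.5 and 81.2 CPM in hippocampus (log2 fold change -2.89, SE 0.53, edgeR adjusted p = 0.000369). Without cortex Scx-/- replicates 2 and 3 it no longer passed (log2 fold change -1.94, edgeR adjusted p = 0.269), nor in 7 further alternatives. Penk passed without the 2 cortex libraries (log2 fold change -4.41, edgeR adjusted p = 0.0221). With these libraries left out, a choice made after the data were seen, 27 genes were higher and 63 lower, 25 of the 40 and 60 of the 124 among them, and the part of striatal RNA in the other calls was not tested.

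Genes of organs outside the brain were also among the calls. Of the 164, 6 (3.66%) had a mean at least 100-fold higher in a non-brain tissue than in either brain tissue, against 810 (4.62%) of all genes tested. Ctrb1, a pancreatic chymotrypsinogen, was at 0 in all cortex libraries and had 6.21, 13.7 and 48.7 CPM in hippocampus, at least 37.3-fold higher. Apoa4, an intestinal apolipoprotein, was at 0 in cortex and had 3.91, 9.55 and 177 CPM in hippocampus, at least 42.2-fold higher. Wild-type hippocampus replicate 1 held 21 of its 34 counts, and without that library the bound was 17.4-fold. Acta1, skeletal muscle actin, had 35.0, 275 and 433 CPM in cortex and 41.0, 95.4 and 118 CPM in hippocampus (log2 fold change -1.74, SE 0.36, edgeR adjusted p = 0.000472), while its mean in muscle was 89900.0 CPM. Tnnc1, cardiac and slow muscle troponin C, had 12.9, 39.5 and 124 CPM in cortex and 0, 0 and 5.41 CPM in hippocampus (log2 fold change -5.92, SE 1.29, edgeR adjusted p = 0.00116). Its mean was 3010.0 CPM in heart and 54.2 CPM in cortex, so it was below the 100-fold ratio and not among the 6. The calls of Ctrb1 and Apoa4 were lost at equal depth, that of Ctrb1 also without the striatum-rich cortex libraries, and that of Apoa4 without wild-type hippocampus replicate 1 or the 2 hippocampus libraries of fewest counts. Of 11 tested genes in a list of genes from other organs, Acta1 and Myh4 were lower and none higher (the call of Acta1 was lost without wild-type cortex replicate 2 and that of Myh4 in 14 of the 21 alternatives), the median was 0.56, and the summed share was 0.00917 to 0.0644% in cortex and 0.00664 to 0.0329% in hippocampus. The source of these counts was not tested.

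**Figure D4:**
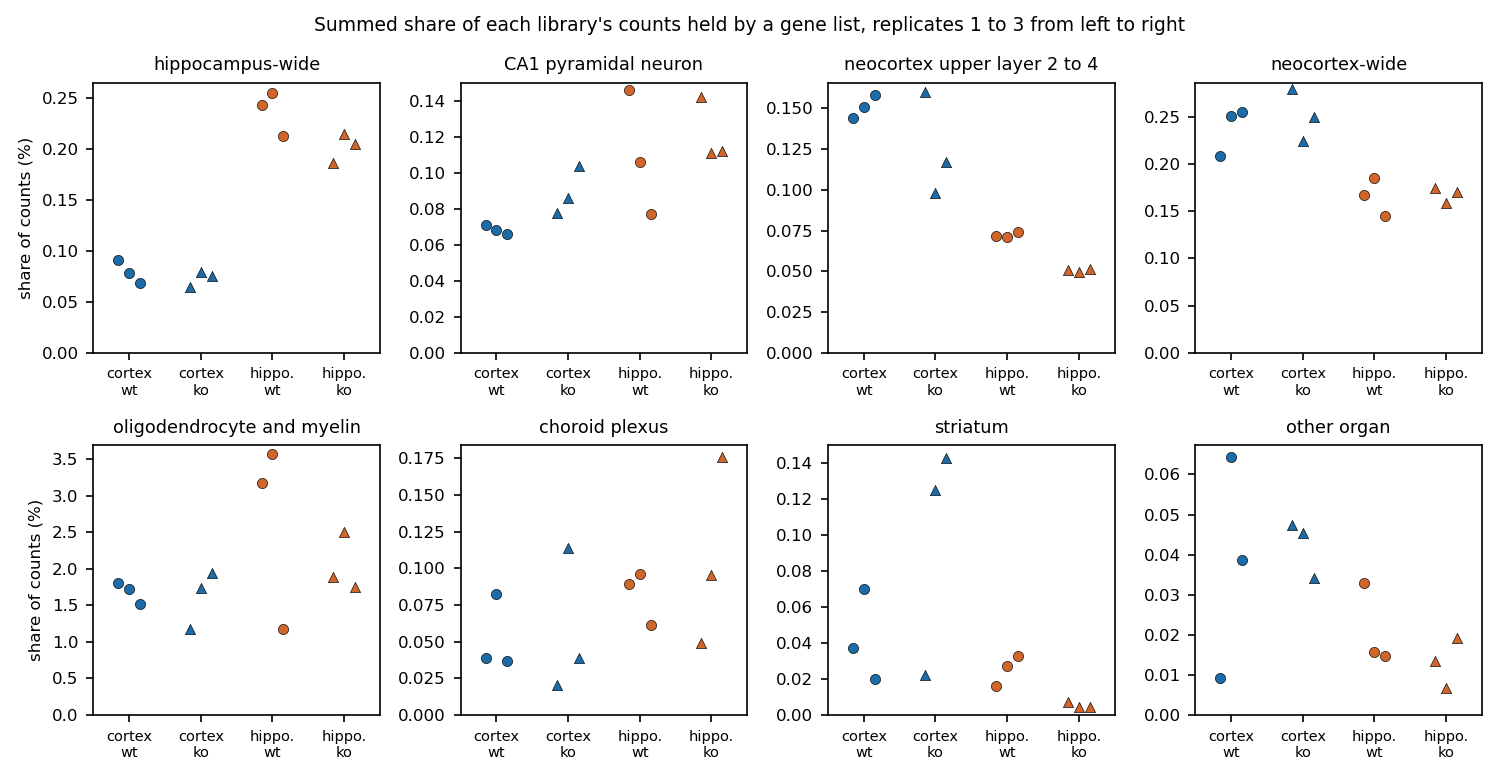
Percentage of each library's counts held by 8 gene lists (vertical axes, linear from 0), with the 4 groups on the horizontal axes and replicates 1 to 3 from left to right. The summed share of the hippocampus-wide list is 0.186 to 0.255% in hippocampus and 0.0642 to 0.0911% in cortex, or 0.0410 to 0.0823% and 0.0409 to 0.0521% without Zbtb20 and Wipf3, and the striatal share is highest in 2 Scx-/- cortex libraries (0.125 and 0.143%).

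The tissue difference was also fitted in each genotype alone. In wild-type libraries 32 of 15594 genes were called, 9 higher and 23 lower, and in Scx-/- libraries 92 of 16248, 28 higher and 64 lower. The fits share no library. Called in both in the same direction were 23 genes, 71.9% of the wild-type calls and 25.0% of the Scx-/- calls. All 32 wild-type calls had the same sign in Scx-/- libraries and 89 of the 92 Scx-/- calls had the same sign in wild-type libraries, with no gene called in opposite directions. The wild-type hippocampus libraries had 118567, 184695 and 142967 counts and the Scx-/- hippocampus libraries 483351, 511781 and 255264, and at equal depth 21 genes were called in wild-type and 55 in Scx-/- libraries. The test of whether the tissue difference itself differed by genotype called 1 gene of 17514 (edgeR), against 1108 at an unadjusted p under 0.05 and 1 by DESeq2.

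Levels in the other 14 tissues placed these genes in the body. Of the 40 genes called higher, 27 had their highest mean of 16 tissues in hippocampus, and of the 124 called lower, 93 had it in cortex, where 12.4% and 15.5% of all genes tested had it, a description only, since the genes were chosen by the difference between these tissues. The rest, 13 and 31 genes, were highest elsewhere. Lpl had a mean of 4100.0 CPM in heart and 190.0 CPM in hippocampus. Tbr1 and Gm11549 were near 0 outside the brain, and Shisa6 had at most 5.51 CPM in any tissue outside the brain.

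**Figure D5:**
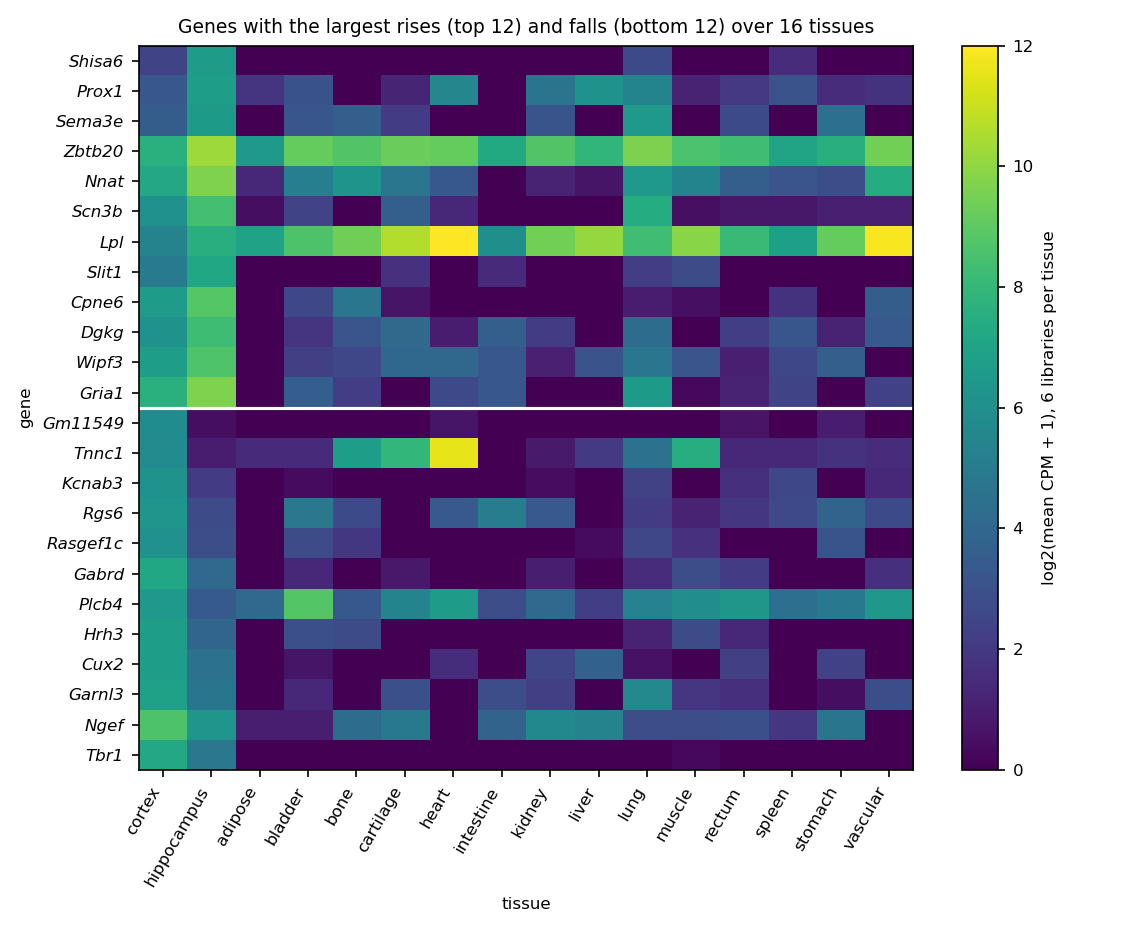
Mean level in 16 tissues (columns, 6 libraries each) of the 12 genes with the largest rises (rows above the white line) and the 12 with the largest falls (below) in hippocampus, coloured by log2 of the mean CPM plus 1. Of the 12 rises Lpl, and of the 12 falls Tnnc1 and Plcb4, are highest outside the brain, where Lpl reaches 4100.0 CPM in heart and Tnnc1 3010.0 CPM in heart.

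Promoter motifs were counted in the first RefSeq window listed for each gene, which was found for 22 of the 40 genes called higher, 88 of the 124 called lower and 12261 of those tested. The E-box CATCTG stood in 3 of the 22 windows (13.6%, Gabra5, Prox1 and Wfs1) and 9 of the 88 (10.2%), against 14.5% of all 27025 windows and 10.9% of the tested genes' windows. TATAAA stood in 1 of the 22 (4.55%, Prox1) and 8 of the 88 (9.09%, Mef2c and Rgs4 among them), against 13.0% and 7.21%. The MEF2 motif, CTA and TAG with 4 bases between them, was found in none of the 22 and 3 of the 88 (3.41%, Ckb, Esrrg and Ldhb), against 3.23% and 2.81%. The cAMP response element TGACGTCA was found in 1 of the 88 (Pcsk1, 1.14%) against 1.62% and 2.59%, and the EGR motif GCGTGGGCG in 1 (Usp28, 1.14%) against 0.54% and 0.93%. Both strands were searched and the motifs do not contain each other.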

How the data were processed

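MuSeq libraries of 6 cortex and 6 hippocampus samples were analysed, grouped by the tissue and genotype in their labels. The deposited values are raw counts per gene symbol: per the labels and the methods, the authors mapped reads to mm10 with Bowtie2 and counted them with HTSeq, without normalization. The annotation, strand setting and tool versions were not given in the sources used here. The paper describes 3′-enriched libraries and the record a Smart-seq2 basis, so levels were not compared between genes. Reads of near-identical or overlapping genes may be shared. No column was left unmapped. From these counts, CPM on library totals was computed for display, and edgeR 4.0.16 (R 4.3.3; glmQLFit with robust estimation, TMM, genes at 0 in all fitted libraries removed, Benjamini-Hochberg adjustment over all genes, threshold 0.05) for tests with genotype as covariate. SE is the absolute log2 fold change over the root of F. Depth was 118567 to 1658192 counts per library. Detected genes were compared at 118567 counts. Other steps ran in Python 3.11.15 (scipy 1.17.1, matplotlib 3.10.9, pandas 2.3.3, numpy 2.4.6). Scripts were tested on simulated counts.

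Members and gene lists were chosen with earlier results of these data known. Named genes were the 12 largest rises and falls without overlap at 50 CPM or more, the 3 most abundant and up to 8 called members of each list, the receptor families, Scx and up to 5 genes of the interaction test. Not every gene this covers is printed, and some genes are not reported here. The AMPA auxiliary and semaphorin lists with their genes, Ctrb1, Apoa4, Kcnv1 and the promoters shown were added after values were seen. Coordinates and sequences are RefSeq, GRCm38.p6. Alternatives were DESeq2 1.42.0, which the authors used between genotypes, RLE and library-total scaling, filterByExpr, equal depth, the replicate number as a block, no genotype term and leaving out each library. Leaving out the 2 cortex libraries with most striatal RNA, or the 2 hippocampus libraries with fewest counts, was added after the data were seen. No animal is tied to a replicate number in the labels, so the main design has no pairing.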

Additional observations from a re-analysis of the deposited data

How the results depend on the processing

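Against 40 genes higher, DESeq2 called 119, RLE scaling 69, library totals 62, no genotype term 61 and equal depth 23. Against 124 lower, RLE called 77, library totals 81, equal depth 63 and the fit without the 2 striatum-rich cortex libraries 63. Without the 2 hippocampus libraries of fewest counts, 52 were higher and 138 lower. The interaction call (1) became 0 at equal depth. The wild-type count of 32 became 58 with DESeq2, 4 with filterByExpr and 21 at equal depth. The Scx-/- count of 92 became 28 with filterByExpr and 55 at equal depth. Leaving out each library gave 32 to 53 higher, 79 to 152 lower, 1 to 20 interaction calls, 10 to 113 wild-type calls, 44 to 155 Scx-/- calls and -2165.7 to -1699.3 detected genes. The lower count fell to 79 without cortex Scx-/- replicate 1, 80 without wild-type cortex replicate 1 and 82 without replicate 2. Interaction calls were 12, 20 and 6 without wild-type hippocampus replicates 1, 2 and 3 and 2 without Scx-/- replicate 2. The cause of these changes was not tested. Of 65 named genes called, 27 were called in all 21 alternatives and 27 lost their call at equal depth. No direction reversed. DESeq2 gave no adjusted p for 3 named genes.

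With the replicate number as a block, 29 genes were higher (28 of the 40), 117 lower (106 of the 124), 22 in wild type and 87 in Scx-/-, with 1 interaction call. Deviations of same-numbered libraries of the tissues correlated at 0.0211 to 0.127 (6 pairs) and others at -0.0841 to 0.0117 (12 pairs). Every library correlated best with its own number, a hint from the data and not the design. Hippocampus floors of up to 25.3 CPM limit what the fits can show for low genes.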

Other observations

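The share of beta-globin counts assigned to Hbb-bs was 32.6 to 52.4% in the wild-type replicate 2 libraries of all 16 tissues and 0 to 0.594% in the other 80 libraries. The beta-globin genes are near-identical, so their split is uncertain. In both cortex and hippocampus, Xist counts and counts of Y-linked genes followed the replicate number. Wild-type replicate 2 and Scx-/- replicates 2 and 3 had 0 to 6 Xist counts and 26 to 210 Y-linked counts, and the other 6 libraries had 20 to 921 Xist counts and 0 to 1 Y-linked counts. Some genes called higher in hippocampus also had levels in lung, with means of 172 CPM for Scn3b, 91.5 CPM for Gria1 and 86.8 CPM for Sema3e.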
